A study of Mus musculus with 6 samples.

Results

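The genes described here are the Rab GTPases measured in cultured mouse microglia, including those that leucine-rich repeat kinase 2 (LRRK2) phosphorylates, together with 4 partners of the phosphorylated Rabs (Rilpl1, Rilpl2, Spag9 and Ppm1h). They were chosen by name: symbols made of Rab, a digit and further digits or letters, with Rab-interacting genes such as the Rab11fip family left out. A member also needed a probe with a detection p under 0.01 on at least 2 arrays, and its brightest such probe stands for the gene. Of 63 candidates named on the array, 47 passed (43 Rabs and the 4 partners), out of 8598 genes tested in all, and 38 of the 47 were detected on all 6 arrays. The rule itself uses names and detection and no difference between groups.

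Microglia, the resident macrophages of the brain, were isolated from mice at postnatal day 3. Non-transgenic (Ntg) mice carried the strain name C57BL/6, and LRRK2KO mice the strain name B6.129X1(FVB)-Lrrk2tm1.1Cai/J, a line with a targeted disruption of Lrrk2. In culture the cells of each genotype received lipopolysaccharide (LPS), a bacterial outer-membrane component, for 6 h or for 24 h, or were kept for 24 h with phosphate-buffered saline (PBS). Every one of these 6 groups was measured on 1 Illumina beadchip, and both LPS times are set against the same 24 h PBS arrays, because PBS at 6 h was not analysed here. The labels do not say how the microglia were purified, how many animals were pooled, or whether the arrays came from separate cultures, so each p-value measures the spread between these arrays alone, and that spread may be technical.

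Rab GTPases are small membrane-bound switches that recruit motors, tethers and adaptors when bound to GTP, and each one marks a particular compartment of the secretory and endocytic pathways. LRRK2, a kinase whose activating mutations cause Parkinson's disease, phosphorylates a subset of Rabs in their switch II region. RILPL1, RILPL2 and JIP4 (the product of Spag9) bind phosphorylated Rab8 or Rab10, and PPM1H removes the phosphate. In macrophages and microglia, Rabs guide phagosome maturation, delivery and degradation of Toll-like receptors and cytokine release. The arrays report transcript levels, so neither phosphorylation nor GTP loading was measured.

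Between 13126 and 15049 of the 45281 probes were detected on each array (29.0% to 33.2%), with median intensities of 94.9 to 111. Lrrk2 itself gave 1 detected value among 36 (6 probes on 6 arrays), at an intensity of 133 on the Ntg PBS array. It was left out of the tests, and the genotype labels could not be checked from it. Of 13 microglial markers, 11 were tested, and their summed linear level was 50253 to 50394 on the PBS arrays and 22742 to 31855 on the LPS arrays. Astrocyte markers (5 of 7 tested) summed to 242 to 256 with PBS and to 727 to 2309 with LPS, mostly through Gja1, and their median difference at 24 h was 0.09 with 1 of 5 called. The 1 tested neutrophil and monocyte marker of 5, S100a8, had linear levels of 69.1 to 108 with PBS and 563 to 2484 with LPS. Fibroblast and pericyte markers (2 of 5) summed to 93.1, 380 and 343 on the Ntg PBS, 6 h and 24 h arrays. On the LRRK2KO ones they summed to 60.9, 51.5 and 163. The rises in these sums were in Dcn, at log2 levels of 5.78, 8.49 and 8.26 on the Ntg arrays. Col1a1, the other marker, was at 5.25, 4.29 and 5.196 there, and neither gene was called in any comparison. Choroid plexus markers (4 of 6) summed to 2687 to 7175 on Ntg arrays and 276 to 739.9 on LRRK2KO arrays, and border macrophage markers (3 of 5) to 2842 to 6038 and 1076 to 2341. None of the 6 neuronal and 4 endothelial markers was detected on 2 arrays. The part of these other cells in the results below was not tested, and in bulk RNA fewer cells of a type and less RNA per cell cannot be told apart.

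All levels below are normalized log2 intensities, and a difference of 1 is a 2-fold change. Differences between arms average over both genotypes and come from an additive limma model over the 6 arrays. An adjusted p under 0.05 (Benjamini-Hochberg, over all 8598 genes) counts as called. Levels of different genes are not set against each other, because probes differ in brightness.

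Most called differences of the Rab set were at 6 h of LPS: Rab20 and Rab21 rose the most, Rab7b fell the most, Rab6b and Rab4a fell below detection, and at 24 h only Rab34 and Rab7b were called against PBS. At 6 h against PBS, 8 of the 47 members rose and 10 fell, which is 38.3% called, against a background of 42% of all genes (15.8% higher and 26.2% lower). At 24 h against PBS, 0 members rose and 2 fell (4.26% of the set), against a background of 15.5% of all genes called either way (6.54% higher, 8.99% lower). Without adjustment, 23 of the 47 members at 6 h and 10 at 24 h had a p under 0.05, beside 4423 and 2631 of all 8598 genes. From 6 h to 24 h of LPS, 7 members rose and 5 fell (25.5%, background 23.8%, with 14.1% higher and 9.68% lower). The median difference over the members was -0.01 at 6 h (-0.13 over all genes), -0.0035 at 24 h (-0.01) and -0.04 between the LPS times (0.10). Most members stayed within 0.5 of their PBS level, 28 of 47 at 6 h and 40 of 47 at 24 h. In all, 28 members were called in none of the 4 comparisons, counting the genotype comparison, and Rab34 and Rab7b were called in 3.

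How many members are called, and in which direction, depended on the scaling and on single arrays. With the arrays scaled on the median of commonly detected probes, the 6 h split was 14 higher and 6 lower, and with the median of all probes it was 2 higher and 10 lower. The median difference of all genes at 6 h was -0.13, 0.02 and -0.39 under the 3 scalings. From 6 h to 24 h the median scalings gave 2 higher and 7 lower, and 8 higher and 2 lower. Leaving out 1 array, 8 members were called at 6 h without the PBS array of Ntg cells, 7 without that of LRRK2KO cells, and 11 without either 24 h LPS array or without the LRRK2KO 6 h array. At 24 h against PBS, 1 member was called without the LRRK2KO LPS 24 h or the Ntg PBS array, and 0 when the Ntg LPS 24 h array was left out. Between the LPS times it was 0 without either 24 h array and 4 without the Ntg 6 h array. Rab7b, Rab6b, Rab4a, Rab20 and Rab21 at 6 h against PBS were called in the same direction under every alternative run. Each other call in the set was lost with at least 1 array left out.

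**Figure D1:**
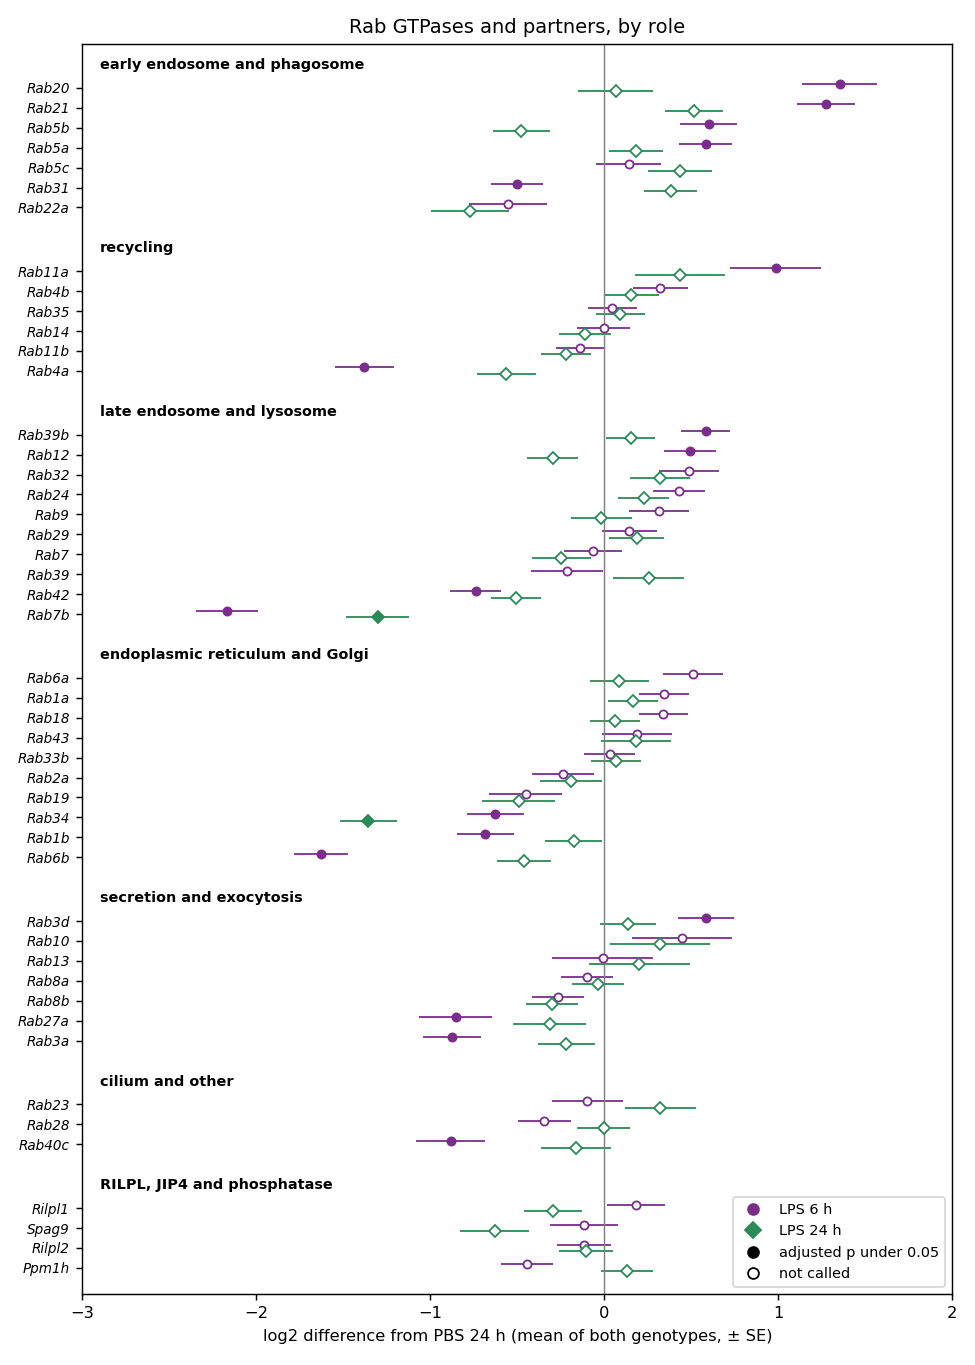
Differences from PBS 24 h (log2, mean of both genotypes ± SE from the limma model over 6 arrays) of the 47 members at LPS 6 h and LPS 24 h, grouped by role, with filled symbols for called differences. At 6 h the points reach from -2.17 (Rab7b) to 1.35 (Rab20), and at 24 h from -1.36 (Rab34) to 0.52 (Rab21).

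Among 7 Rabs of early endosomes and phagosomes, 4 rose at 6 h of LPS (Rab20, Rab21, Rab5a and Rab5b), 1 fell (Rab31) and 2 were not called (Rab5c and Rab22a), beside 15.8% higher and 26.2% lower over all genes. The median difference of these 7 genes was 0.58 at 6 h and 0.18 at 24 h against PBS, when none was called. Rab20 and Rab21 had the largest rises of the whole set, and both fell again by 24 h. Their promoters are printed here. Among members called with a difference of at least 1 that have a promoter window, only these hold a motif searched for below. The sequences run from 250 bases before to 50 bases after the annotated start, 5′ to 3′ on the gene's own strand (RefSeq, GRCm38.p6). Capitals mark matches to CACGTG, the palindromic core of the site bound by the TFEB and TFE3 family and other E-box factors, and to GAAANNGAA, an element like that bound by interferon regulatory factors.
Rab20, chr8:11478591-11478890, minus strand: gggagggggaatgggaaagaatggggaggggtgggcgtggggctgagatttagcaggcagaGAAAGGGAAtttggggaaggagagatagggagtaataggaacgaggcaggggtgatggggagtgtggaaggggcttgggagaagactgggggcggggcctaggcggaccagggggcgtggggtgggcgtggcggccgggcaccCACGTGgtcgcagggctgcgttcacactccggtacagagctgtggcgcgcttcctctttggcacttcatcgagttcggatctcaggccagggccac
Rab21, chr10:115315542-115315841, minus strand: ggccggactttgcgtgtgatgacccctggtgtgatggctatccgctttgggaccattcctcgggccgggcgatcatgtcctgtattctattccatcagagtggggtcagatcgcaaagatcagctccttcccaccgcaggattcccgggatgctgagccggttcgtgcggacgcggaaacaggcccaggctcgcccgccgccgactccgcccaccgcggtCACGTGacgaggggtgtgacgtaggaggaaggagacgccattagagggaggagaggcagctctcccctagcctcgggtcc
The CACGTG match begins 46 bases before the start in Rab20 and 30 bases before it in Rab21, and GAAANNGAA begins 189 bases before the start in Rab20. Both strands of 32851 windows of this length were searched for these motifs and for GGGANTTTC, a core of the NF-kB site. CACGTG is in 7.15% of all windows, GAAANNGAA in 8.56% and GGGANTTTC in 1.11%. A window was found for 43 of the 47 members, 53 windows in all. Of these 53 windows, 6 hold CACGTG, 2 hold GAAANNGAA and 0 hold GGGANTTTC. By gene, 6 of the 43 hold CACGTG (Rab20, Rab21, Rab23, Rab24, Rab27a and Rab5a) and 2 hold GAAANNGAA (Rab19 and Rab20). Of the 6 genes with CACGTG, Rab20, Rab21 and Rab5a rose at 6 h and Rab27a fell, beside 15.8% higher and 26.2% lower over all genes. Rab23 and Rab24 were not called in any comparison. Any link between motif and response was not tested. The windows of Rab6b, Rab34 and Rab5b hold none of the 3, and Rab7b and Rab4a have no window here.

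Rab20, which acts in phagosome maturation and is induced by interferon-gamma in macrophages, was at 4.61 (Ntg) and 5.19 (LRRK2KO) with PBS, 6.35 and 6.16 at 6 h, and 4.80 and 5.13 at 24 h. Both 6 h arrays lie above all others, and the gene was detected on 4 of the 6 arrays, 1 of them with PBS. The rise at 6 h was 1.35 ± 0.21 (SE, n = 2 arrays per arm, as for every arm below; adjusted p = 0.00553), and from 6 h to 24 h it fell by 1.29 ± 0.21 (adjusted p = 0.0131). Rab21, which moves integrins through early endosomes, was at 7.77 (Ntg) and 7.87 (LRRK2KO) with PBS, 9.22 and 8.97 at 6 h and 8.47 and 8.20 at 24 h. The 3 arms do not overlap, with the 24 h arrays between the others. Its rise at 6 h was 1.27 ± 0.16 (adjusted p = 0.00295), and it fell by 0.76 ± 0.16 thereafter (adjusted p = 0.0256). At 24 h it was 0.52 ± 0.16 above PBS, which missed the threshold (adjusted p = 0.0924).

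Rab5a, Rab5b and Rab5c are the paralogs that drive early endosome fusion, and all are LRRK2 substrates. Rab5b lay at 5.83 (Ntg) and 6.10 (LRRK2KO) with PBS, 6.31 and 6.82 at 6 h, and 5.45 and 5.53 at 24 h, so the 6 h arrays were highest and the 24 h arrays lowest. It rose by 0.60 ± 0.17 at 6 h (adjusted p = 0.0323) and fell by 1.08 ± 0.17 from 6 h to 24 h (adjusted p = 0.0108). Rab5a lay at 10.23 (Ntg) and 10.11 (LRRK2KO) with PBS, 10.96 and 10.55 at 6 h and 10.54 and 10.17 at 24 h. The 6 h arrays again lie above the rest, the LRRK2KO one by little. Its rise was 0.58 ± 0.15 (adjusted p = 0.0287). Of the 3 detected Rab5a probes, another gave 0.66 at 6 h and the third gave -0.15, and with the probes averaged the difference was 0.36 (adjusted p = 0.0818). Rab5c lay at 11.45 (Ntg) and 11.13 (LRRK2KO) with PBS, 11.32 and 11.54 at 6 h and 11.66 and 11.79 at 24 h. Its 24 h arrays are highest, but no difference between arms was called (0.43 ± 0.19 at 24 h against PBS, adjusted p = 0.179).

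Rab31, which carries cargo between the Golgi and endosomes, moved the opposite way from Rab5b. It fell by 0.50 ± 0.15 at 6 h (adjusted p = 0.0409) and rose by 0.88 ± 0.15 from 6 h to 24 h (adjusted p = 0.0137), with levels of 11.37 to 12.54 over the 6 arrays. The fall at 6 h was -0.06 with the arrays scaled on the median of commonly detected probes (adjusted p = 0.797). Rab22a, an early endosome sorting Rab, was at 8.49 on both PBS arrays and between 7.60 and 8.23 on the 4 LPS arrays. It was 0.77 ± 0.22 lower at 24 h on the log2 scale (difference -0.77), short of the threshold (adjusted p = 0.0726), and its second probe gave -0.83. This difference was called without background subtraction and on the authors' series matrix, at the same size (-0.59). It was also called with offset 50, scaling on the median of all probes, averaged probes or an intensity trend. The call was not made with scaling on commonly detected probes, with detection required on all 6 arrays, or with no filter.

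**Figure D2:**
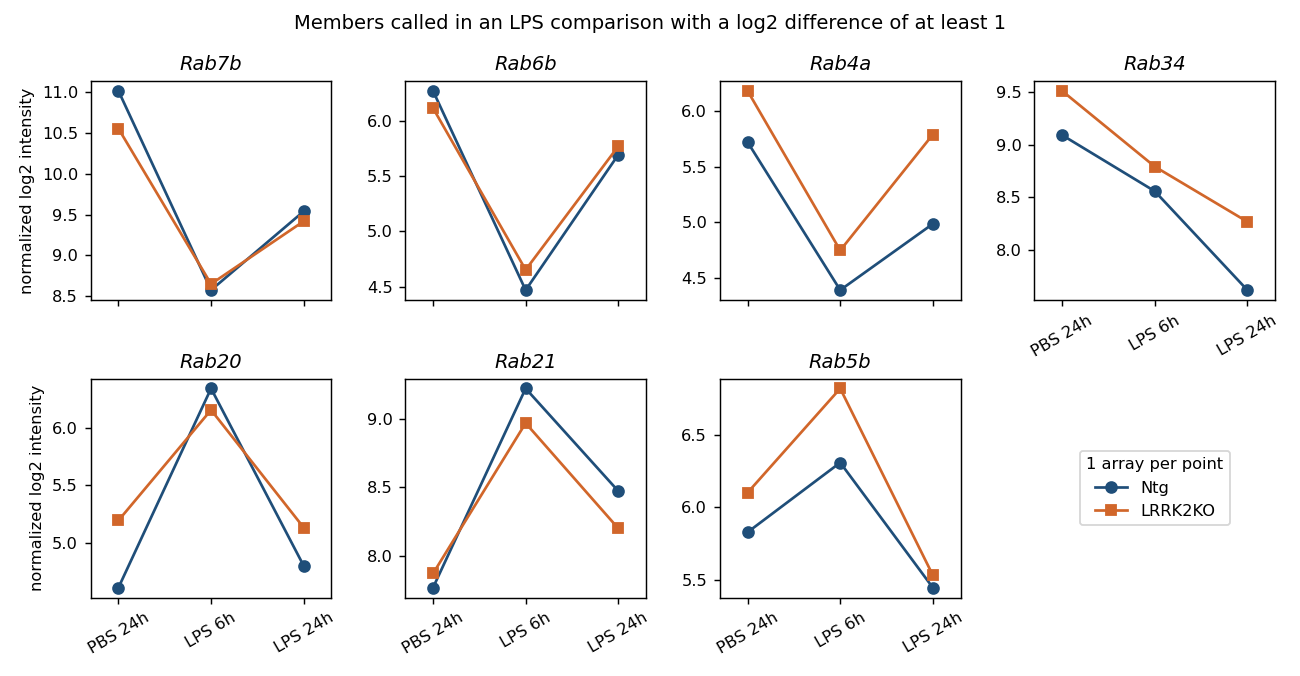
Normalized log2 intensity on each of the 6 arrays for the members called with a difference of at least 1, with PBS 24 h, LPS 6 h and LPS 24 h on the horizontal axis and 1 line per genotype. Rab7b, Rab6b and Rab4a dip at 6 h, Rab20, Rab21 and Rab5b peak at 6 h, and Rab34 is lowest at 24 h.

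Of 6 recycling Rabs, Rab4a fell and Rab11a rose at 6 h, and the other 4 (Rab4b, Rab11b, Rab14 and Rab35) were not called. Over all genes 15.8% were higher and 26.2% lower at 6 h. Rab4a, the Rab of fast recycling to the plasma membrane, lay at 5.72 (Ntg) and 6.18 (LRRK2KO) with PBS, 4.39 and 4.75 at 6 h, and 4.99 and 5.79 at 24 h. Neither 6 h array detected it, while the 24 h arrays span the gap, the LRRK2KO one reaching the PBS levels. The fitted difference at 6 h was -1.38 ± 0.17 (adjusted p = 0.00249), and as a bound Rab4a was at least 1.69-fold lower. From 6 h to 24 h it was at least 1.14-fold higher (fitted difference 0.82 ± 0.17, adjusted p = 0.0229). For such a bound, each array of the dim arm counts at the lowest detected signal or at the probe's own value, whichever is higher.

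Rab11a, the Rab of the slow recycling endosome, which in macrophages brings Toll-like receptor 4 to phagosomes, lay at 6.51 (Ntg) and 6.12 (LRRK2KO) with PBS, 6.996 and 7.60 at 6 h and 6.55 and 6.96 at 24 h. The 6 h arrays are the highest of their genotypes. The rise was 0.98 ± 0.26 (adjusted p = 0.0281), with 0.48 in Ntg and 1.49 in LRRK2KO cells, a pair of responses whose difference has no test. Without the LRRK2KO 6 h array it was 0.68 (adjusted p = 0.129), and without the LRRK2KO PBS array 0.53 (adjusted p = 0.126).

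Late endosomal and lysosomal Rabs, 10 in number, gave 2 rises (Rab12 and Rab39b) and 2 falls (Rab7b and Rab42) at 6 h, with a median of 0.23 (15.8% higher, 26.2% lower and a median of -0.13 over all genes). Rab7b, which in mouse macrophages promotes lysosomal degradation of Toll-like receptor 4, had the largest change of the set. It lay at 11.01 (Ntg) and 10.55 (LRRK2KO) with PBS, 8.58 and 8.65 at 6 h, and 9.54 and 9.42 at 24 h. The 3 arms do not overlap, and the genotypes are within 0.5 of each other in each. Rab7b fell by 2.17 ± 0.18 at 6 h (adjusted p = 0.000805), was 1.30 ± 0.18 below PBS at 24 h (difference -1.30, adjusted p = 0.0080), and rose by 0.87 ± 0.18 between the LPS times (adjusted p = 0.0228). A second Rab7b probe gave -2.03 at 6 h and -0.87 at 24 h. The 24 h difference lost its call, at sizes of -1.08 to -1.34, without the Ntg PBS array (adjusted p = 0.0556), the Ntg LPS 24 h array (adjusted p = 0.0808) or that of LRRK2KO LPS 24 h (adjusted p = 0.0633).

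Rab7, the main Rab of late endosomes, lay between 11.21 and 11.67 on the 6 arrays, with a difference at 6 h of -0.06 ± 0.17 (adjusted p = 0.773). The other 2 Rab7 probes detected on all 6 arrays gave 0.38 and 0.34 at 6 h, and -0.64 and -0.68 from 6 h to 24 h (-0.18 for the brightest), so the Rab7 values depend on the probe. Rab42 was detected on the 2 PBS arrays alone and was lower at 6 h (adjusted p = 0.0110), but its PBS level gives no bound above 1-fold, so no size is given. Rab39b, whose human gene is mutated in X-linked intellectual disability with parkinsonism, was detected on the 2 LPS 6 h arrays alone and was at least 1.42-fold higher there (adjusted p = 0.0219). It missed the threshold under 5 of the processing alternatives (0.18 to 0.58, adjusted p = 0.0548 to 0.365). Rab32, of lysosome-related organelles, was 0.49 ± 0.17 higher at 6 h, which was not called (adjusted p = 0.065). Rab9 and Rab24, which serve retrograde transport to the Golgi and autophagy, were not called in any comparison.

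The 10 Rabs of the endoplasmic reticulum and Golgi gave 3 falls at 6 h (Rab6b, Rab1b and Rab34) and 0 rises, beside 26.2% lower and 15.8% higher over all genes, with a median of -0.10 (-0.13 over all genes). Rab6b, a Golgi Rab best known from neurons, lay at 6.27 (Ntg) and 6.11 (LRRK2KO) with PBS, 4.47 and 4.65 at 6 h, and 5.69 and 5.77 at 24 h. The arms do not overlap, and neither 6 h array detected the gene, so it was at least 1.99-fold lower at 6 h (fitted difference -1.63 ± 0.16, adjusted p = 0.00123). It was then at least 1.45-fold higher at 24 h than at 6 h (fitted difference 1.17 ± 0.16, adjusted p = 0.00839). Of the 6 neuronal markers, 0 were detected on 2 arrays, and any part of neurons in the Rab6b values was not tested. Rab6a, the widely expressed paralog, differed by 0.51 ± 0.17 at 6 h in the other direction, which was not called (adjusted p = 0.0575).

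Rab34, which places lysosomes near the Golgi and acts in macropinosome and cilium formation, was the member lowest at 24 h. It lay at 9.09 (Ntg) and 9.51 (LRRK2KO) with PBS, 8.56 and 8.79 at 6 h, and 7.62 and 8.27 at 24 h. The arms step down in that order without overlap. Rab34 was 0.63 ± 0.16 below PBS at 6 h (difference -0.63, adjusted p = 0.0278) and fell by 1.36 ± 0.16 at 24 h (adjusted p = 0.0056). A second probe gave -0.65 and -1.44. Without the Ntg LPS 24 h array the 24 h difference was -1.20 (adjusted p = 0.0686). Rab1b, of transport from the endoplasmic reticulum, fell by 0.69 ± 0.16 at 6 h (adjusted p = 0.0207), and its paralog Rab1a differed by 0.34 ± 0.14, not called (adjusted p = 0.103). Rab33b, which binds the autophagy protein ATG16L1, kept within 8.53 to 8.67 on the 6 arrays.

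Secretory Rabs, 7 in number, gave 1 rise (Rab3d) and 2 falls (Rab3a and Rab27a) at 6 h, where 15.8% of all genes rose and 26.2% fell. Rab27a docks lysosome-related organelles and exosome-producing endosomes at the plasma membrane. It fell at 6 h by 0.85 ± 0.21 (adjusted p = 0.0215), from 5.57 and 5.73 to 4.41 (Ntg, not detected on this array) and 5.18 (LRRK2KO). Without background subtraction this was -0.28 (adjusted p = 0.0672). Among the 3 remaining Rabs, Rab40c, which joins a ubiquitin ligase, fell by 0.88 ± 0.20 at 6 h (adjusted p = 0.0171), while Rab23 and Rab28 were not called. On their brightest probes all 3 had higher levels at 24 h than at 6 h, by 0.34 to 0.72 (median of 0.10 over all genes). The call was made for Rab40c (adjusted p = 0.0495). Neither 6 h array detected Rab23, so its difference is a bound, at least 1.185-fold. Of 3 detected Rab28 probes, another gave 0.39 and the third -0.04.

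The 12 measured LRRK2 substrates (of 15 listed symbols, where Rab7l1 is an older name of Rab29, and Rab3b and Rab3c were not detected on 2 arrays) gave 4 rises (Rab5a, Rab5b, Rab3d and Rab12) and 1 fall (Rab3a) at 6 h, beside 15.8% higher and 26.2% lower over all genes, and 0 calls at 24 h against PBS, beside 15.5% of all genes. Their median difference was 0.17 at 6 h and 0.11 at 24 h (-0.13 and -0.01 over all genes). Rab12, which sends transferrin receptors to lysosomes and is known to activate LRRK2, lay at 9.09 (Ntg) and 9.11 (LRRK2KO) with PBS, 9.69 and 9.50 at 6 h and 8.90 and 8.71 at 24 h. It rose by 0.49 ± 0.15 (adjusted p = 0.0425) and then fell by 0.79 ± 0.15 (adjusted p = 0.0180), ending on both 24 h arrays below every other. The rise lost its call without any 1 of the 6 arrays (0.39 to 0.59, adjusted p = 0.0774 to 0.232).

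Rab3d and Rab3a, paralogs of regulated exocytosis, moved in opposite directions. Rab3d lay at 10.30 (Ntg) and 10.15 (LRRK2KO) with PBS, 11.02 and 10.60 at 6 h, and 10.62 and 10.10 at 24 h, and rose by 0.58 ± 0.16 at 6 h (adjusted p = 0.0326). Its LRRK2KO 6 h value does not exceed the Ntg 24 h value, so arms overlap once genotypes are mixed. Rab3a lay at 5.59 (Ntg) and 5.73 (LRRK2KO) with PBS, 4.55 and 5.02 at 6 h, undetected on both, and 5.40 and 5.48 at 24 h. It was at least 1.38-fold lower at 6 h than with PBS (fitted difference -0.88 ± 0.17, adjusted p = 0.00973). From 6 h to 24 h it was at least 1.18-fold higher (adjusted p = 0.0378). The call of this later rise was kept under only 2 of 8 processing alternatives, and its fitted difference ranged from 0.20 to 0.84 over all alternatives run.

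The substrates most studied as readouts of LRRK2 activity had no call between arms. Rab8a, of exocytosis and ciliogenesis, lay at 11.49 (Ntg) and 11.52 (LRRK2KO) with PBS, 11.34 and 11.46 at 6 h and 11.53 and 11.41 at 24 h, a range of 0.18 over all 6 arrays, with the 24 h values overlapping both other arms. Rab8b, its paralog, lay at 12.50 (Ntg) and 12.35 (LRRK2KO) with PBS, 12.15 and 12.16 at 6 h and 12.24 and 12.01 at 24 h, where both PBS arrays are highest but no difference was called (-0.30 ± 0.15 at 24 h, adjusted p = 0.239). Rab35, of recycling from the plasma membrane, lay at 10.50 (Ntg) and 10.45 (LRRK2KO) with PBS, 10.51 and 10.54 at 6 h and 10.56 and 10.58 at 24 h. The arms do not overlap, yet its range of 0.12 was the narrowest of the 47 members. The 95% interval of its LPS 6 h difference was -0.30 to 0.39, and that of Rab8a was -0.46 to 0.26 for the brightest probe. A second Rab8a probe, detected on all 6 arrays, gave 0.32 at 6 h, outside that interval.

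Rab10, which carries transporters to the plasma membrane, lay at 7.44 (Ntg) and 7.03 (LRRK2KO) with PBS, 7.39 and 7.98 at 6 h, and 7.21 and 7.90 at 24 h. On this brightest probe the LRRK2KO values are higher on both LPS arrays than with PBS, and the Ntg values are not. A second Rab10 probe, detected on 4 arrays, was higher at 6 h in both genotypes. It went from 5.04 to 6.07 in Ntg and from 4.68 to 5.66 in LRRK2KO cells, and lay at 4.99 and 5.75 at 24 h. The 6 h pattern of the genotypes thus depends on the probe. For the brightest probe the average difference at 6 h was 0.45 ± 0.29 (adjusted p = 0.252), with a wide 95% interval of -0.26 to 1.15. Rab29, a Golgi and lysosomal Rab that recruits LRRK2 to membranes, lay at 9.57 (Ntg) and 9.42 (LRRK2KO) with PBS, 9.70 and 9.58 at 6 h and 9.91 and 9.46 at 24 h. Its PBS and 6 h values lie edge to edge and its 24 h values span both (0.14 ± 0.16 at 6 h, adjusted p = 0.488). Rab43, of the Golgi, lay at 6.96 (Ntg) and 7.26 (LRRK2KO) with PBS, 7.50 and 7.09 at 6 h and 7.35 and 7.23 at 24 h. On its brightest probe the arms overlap too (0.19 ± 0.20 at 6 h, adjusted p = 0.481). Another Rab43 probe, detected on all 6 arrays, was lower on both PBS arrays (5.55 and 5.64) than on every LPS array (6.09 to 6.67). It gave 0.57 at 6 h and 0.79 at 24 h against PBS, beside 0.19 and 0.18 for the brightest. The remaining detected probe gave 0.19 and 0.31, so the Rab43 values depend on the probe.

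Of the 4 partners of phosphorylated Rabs, none was called at 6 h or at 24 h against PBS, and 1, Ppm1h, was called between the LPS times. Over all genes 42%, 15.5% and 23.8% were called in these comparisons. Ppm1h, the phosphatase, lay at 10.28 (Ntg) and 10.30 (LRRK2KO) with PBS, 9.73 and 9.97 at 6 h, and 10.30 and 10.55 at 24 h. The 6 h arrays are lowest. It was 0.45 ± 0.15 lower at 6 h (difference -0.45, adjusted p = 0.0578) and rose by 0.58 ± 0.15 from there to 24 h (adjusted p = 0.0415). Its second detected probe went the other way, with 1.05 at 6 h and 1.13 at 24 h against PBS, so the direction depends on the probe. With both averaged, Ppm1h was 0.63 above PBS at 24 h (adjusted p = 0.0490) and the difference between the LPS times was 0.33 (adjusted p = 0.181).

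Spag9, which encodes the motor adaptor JIP4, lay at 8.76 (Ntg) and 8.28 (LRRK2KO) with PBS, 8.33 and 8.48 at 6 h, and 7.88 and 7.90 at 24 h. Both 24 h arrays are below the rest, by -0.63 ± 0.20 from PBS (adjusted p = 0.0877). The 5 detected Spag9 probes differed at 6 h, from -0.12 for the brightest to 1.20, but all were lower at 24 h than at 6 h, by -0.51 to -0.86, and their mean was called there (-0.70, adjusted p = 0.0227). Rilpl1, which blocks ciliogenesis when bound to phosphorylated Rabs, lay at 7.25 (Ntg) and 7.72 (LRRK2KO) with PBS, 7.46 and 7.88 at 6 h, and 6.79 and 7.60 at 24 h. In each genotype its 24 h array is lowest (-0.48 ± 0.16 against 6 h, adjusted p = 0.0863). Rilpl2, its paralog, lay at 11.47 (Ntg) and 11.49 (LRRK2KO) with PBS, 11.23 and 11.50 at 6 h and 11.40 and 11.36 at 24 h, with the 6 h values on both sides of all others (-0.12 ± 0.16 at 6 h, adjusted p = 0.563).

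Whether loss of Lrrk2 altered the level of its substrate genes is the question the genotypes pose. None of the 47 members was called between LRRK2KO and Ntg in the limma model, against a background of 0.465% of all genes (40 genes, 0.163% higher and 0.302% lower). Without adjustment, 7 of the 47 members had a p under 0.05, beside 1383 of all 8598 genes. The median difference was -0.0049 over the members and 0.00082 over all genes, and 44 of 47 lay within 0.5 of 0. On their brightest probes the 12 substrates ranged from -0.37 (Rab3d) to 0.29. Other detected probes gave 0.39 and -0.21 for Rab5a (-0.30 on the brightest), and 0.23 and -0.04 for Rab43 (-0.08). Second probes gave -0.0042 for Rab10 (0.29), 0.15 for Rab8a and -0.24 for Rab8b (-0.12). The sign for Rab5a, Rab43 and Rab10 thus depends on the probe. For Rab8a the difference was 0.01 ± 0.12 with a 95% interval of -0.29 to 0.31, and for Rab35 the interval was -0.29 to 0.28. Rab10 had a wider one, -0.29 to 0.87. A difference that was not called does not show equal levels.

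The largest genotype difference was in Rab39, a Rab of phagosomes and late endosomes whose human protein binds caspase-1. Rab39 lay at 6.52 (Ntg) and 5.30 (LRRK2KO) with PBS, 5.98 and 5.40 at 6 h, and 6.77 and 5.56 at 24 h. All 3 LRRK2KO arrays are below all 3 Ntg arrays, by -1.22, -0.58 and -1.21. The average of -1.01 ± 0.17 (SE, n = 3 arrays per genotype) missed the threshold over all genes (limma adjusted p = 0.0851). It was called with median scaling over all probes (-1.09, limma adjusted p = 0.000293) and with an intensity trend (limma adjusted p = 0.0495). Leaving out either 6 h array gives 1 and the same genotype difference, -1.22, because it then rests on the PBS and 24 h arms alone. Choroid plexus and border macrophage markers were also lower on the LRRK2KO arrays (sums given above), and their part in this difference was not tested. Rilpl1 was higher on the LRRK2KO array of each arm, by 0.47, 0.42 and 0.81, on average 0.57 ± 0.13 (adjusted p = 0.141).

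**Figure D3:**
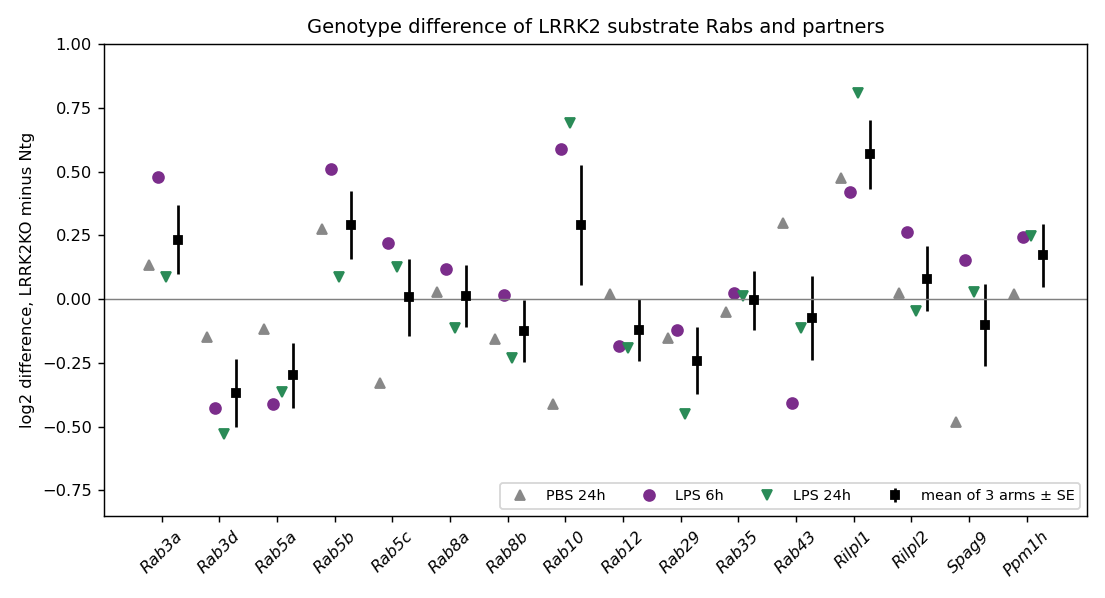
Difference between LRRK2KO and Ntg (log2) for the 12 measured LRRK2 substrates and the 4 partners, with 1 coloured symbol per arm (single arrays) and black squares for the mean of the 3 arms ± SE from the limma model. Rilpl1 lies above 0 in every arm with a mean of 0.57, Rab3d below 0 with a mean of -0.37, and the arms of Rab10 lie on both sides of 0. Each gene is drawn from its brightest probe, and other probes of some genes, such as Rab5a, differed in sign.

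Counted on single arrays, which allow no test, members at least 2-fold apart between the genotypes were few. With PBS 0 were higher and 1 lower in LRRK2KO (Rab39), against 1.01% and 1.73% of all genes. At 6 h there were 0 and 0 (1.72% and 1.77% of all genes), and at 24 h 0 and 2, Rab13 (-1.08) and Rab39 (1.71% and 2.22%). Rab13, of tight junction transport, was at 6.60 on the Ntg 24 h array and between 5.52 and 5.87 on the other 5. Members at least 2-fold apart between arms were also counted within each genotype. At 6 h against PBS there were 2 higher and 6 lower in Ntg cells (8.99% and 14.3% of all genes) and 2 higher and 3 lower in LRRK2KO cells (8.01% and 9.99%). At 24 h against PBS there were 0 higher and 2 lower in Ntg (4.31% and 6.06%) and 0 higher and 2 lower in LRRK2KO cells (4.56% and 5.29%). From 6 h to 24 h the counts were 2 higher and 1 lower in Ntg (8.14% and 6.4%) and 2 higher and 2 lower in LRRK2KO cells (4.37% and 4.95%). The direction of each member's LPS response was also compared between the genotypes. At 6 h, 19 members were higher and 17 lower in both genotypes, and 11 had opposite signs, 1 of them by at least 0.2 each way. The same count was not made over all genes, so it cannot be told whether the members differ from other genes in this.

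**Figure D4:**
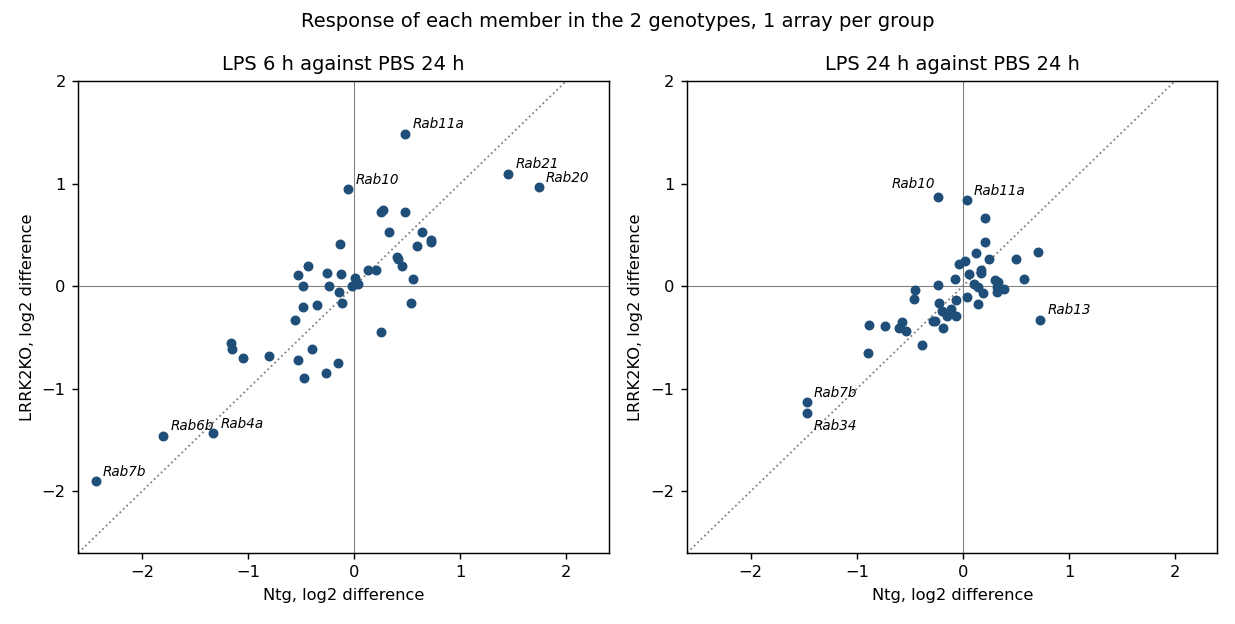
LPS response of each member in Ntg (horizontal) and LRRK2KO (vertical) cells, as log2 differences between single arrays, at 6 h (left) and 24 h (right) against PBS, with the dotted diagonal marking equal responses. Most points lie near the diagonal, and Rab10 and Rab11a lie above it at 6 h, with responses of -0.05 and 0.95, and of 0.48 and 1.49. Each point is the brightest probe, and a second Rab10 probe, not drawn, was higher at 6 h in both genotypes.

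The proteins that load, unload and read Rabs were counted as further genes of the pathway. Of 24 measured Rab activators, 5 rose and 7 fell at 6 h, and of 27 inactivators (GTPase-activating proteins) 1 rose and 10 fell, beside 15.8% higher and 26.2% lower over all genes. Of 25 effectors 2 rose and 7 fell, and of 10 genes for Rab machinery and LRRK2 relatives 0 rose and 2 fell. From 6 h to 24 h, 9 inactivators and 6 effectors rose and 0 of either fell, beside 14.1% higher and 9.68% lower over all genes. Rab3il1, an activator of Rab8 and Rab3, was at least 10.04-fold lower at 6 h (adjusted p = 0.000239) and still 1.40 ± 0.17 lower on the log2 scale at 24 h (difference -1.40, adjusted p = 0.00531). Rab11fip5, an effector of Rab11, fell by 2.14 ± 0.15 at 6 h (adjusted p = 0.000541), while Rab11a rose. Lrrk1, the paralog of Lrrk2 that phosphorylates Rab7, fell by 1.80 ± 0.16 (adjusted p = 0.00108) and rose by 1.39 ± 0.16 towards 24 h (adjusted p = 0.00676). Ppm1m, a phosphatase related to PPM1H, fell by 1.45 ± 0.21 at 6 h (adjusted p = 0.00442). Rabgef1, an activator of Rab5 and Rab21, rose by 1.45 ± 0.16 at 6 h (adjusted p = 0.00179), in the same arm as Rab5a, Rab5b and Rab21. Fewer were called at 24 h against PBS. The rises there included Micall2, an effector of Rab13 (1.27 ± 0.30, adjusted p = 0.0409), and Ric1, part of an activator of Rab6 (0.81 ± 0.20, adjusted p = 0.0476). The falls included Tbc1d2, an inactivator of Rab7 (-1.06 ± 0.18, adjusted p = 0.0167), Rilp, a Rab7 effector, which fell by 0.90 ± 0.15 (adjusted p = 0.0146), and Myo5a, a motor recruited by Rab27a, which fell by 0.87 ± 0.14 (adjusted p = 0.0132).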

How the data were processed

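The members and the gene lists were chosen with earlier results of these data known. Per the file headers, the deposited table gives 45281 probes, each with a linear intensity and a detection p-value on 6 arrays. The submitters' processing notes name BeadStudio, which computes that p-value from negative controls. The authors' series matrix holds linear intensity values that share their quartiles over the arrays, and served as an alternative. Column and sample names gave the mapping, and 1 array per group means that every group has only replicate 1.

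Background was corrected with limma's normexp from the deposited detection p-values (offset 16), followed by quantile normalization and log2 (R 4.3.3, limma 3.58.1). The offset pulls dim probes together, so their differences are understated. Of the probes, 34885 carried 1 gene symbol in the platform annotation and 10396 did not; 15553 were detected (detection p under 0.01) on at least 2 arrays. The brightest such probe represented a gene, which left 8598 genes. Probe sequences were not used, so cross-hybridisation between Rab paralogs was not tested.

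An additive model of genotype and arm over all 6 arrays (lmFit, eBayes) has 2 residual degrees of freedom and 3.88 prior degrees of freedom. Array noise and any difference of response between genotypes both enter its error, and precision is limited by the number of arrays. P-values are two-sided, adjusted by Benjamini-Hochberg over 8598 genes, and called under 0.05. Values on every array are given for members called with a difference of at least 1, for detected LRRK2 substrates and for the 4 partners; other Rab genes were named as values bore on the text, and regulators from the 6 largest called differences per comparison. A gene undetected on all arrays of 1 side has only a bound. The script was tested on simulated data. Protein sequences were not used here.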

Additional observations from a re-analysis of the deposited data

Results flagged for a closer look

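Members whose LPS response ran in opposite directions in the genotypes, by at least 0.2 on the log2 scale each way, are given here. The difference was not tested, because each group has 1 array, and every value below is a difference of single arrays. Rab10, the exocytic LRRK2 substrate, was lower at 24 h of LPS than with PBS in Ntg cells (-0.23) and higher in LRRK2KO cells (0.87), so its responses differed by 1.10. For Rab13 the 24 h response was 0.73 in Ntg and -0.33 in LRRK2KO cells, a difference of -1.06, and from 6 h to 24 h it was 0.76 and -0.33, a difference of -1.09. Both Rab13 values rest on its Ntg LPS 24 h array. Rab23, which acts in Hedgehog signalling, gave 6 h differences of 0.25 in Ntg and -0.45 in LRRK2KO cells, a difference of -0.70. Of the 4 arrays behind these values only the LRRK2KO PBS array detected Rab23, so they lie near background. The Rab19 values differed from 6 h to 24 h by -0.39 in Ntg and 0.31 in LRRK2KO cells, a difference of 0.70, but none of these 4 arrays detected Rab19 and the values carry no order.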

How the results depend on the processing

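No paired analysis was possible because each group holds only replicate 1. Of 32 called member differences, none reversed under any alternative. With other processing 232 of their values kept the call and 45 lost it, and with 1 array left out 98 kept it and 94 lost it. Some alternatives gave the same or nearly the same values, such as no background subtraction and the series matrix, so these counts are not of independent runs. At 24 h against PBS the members called were 2, and 4 with the mean of detected probes. The genotype comparison called 40 genes, and 101 without background subtraction, 112 with offset 50, 81 with median scaling, 444 with median scaling over all probes (chosen after seeing the data), 100 on the series matrix, 0 with no detection filter, 67 with the mean of probes and 183 with an intensity trend. It called 0 members, and 1 (Rab39) with median scaling over all probes or an intensity trend. Without background subtraction, members at least 2-fold apart between genotypes on single arrays were 0 with PBS (1 otherwise) and 0 at 24 h (2 otherwise). The cause of these changes was not tested. Leaving out each array in turn gave 319 to 1633 genes and 0 to 3 members at 24 h against PBS, 1815 to 3325 genes and 7 to 13 members at 6 h against PBS, 161 to 1976 genes and 0 to 12 members between the LPS times, and 0 to 122 genes and 0 to 1 members between genotypes; an arm then rests on a lone array assumed to vary like the others. At 6 h against PBS the adjusted p reached at most 0.0073 for Rab7b, 0.0124 for Rab6b, 0.0237 for Rab4a, 0.0408 for Rab20 and 0.0256 for Rab21. Members near background (Rab19, Rab39b and Rab42, detected on 2 arrays each) have the least reliable differences.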

Other observations

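Among the named Rab genes, 16 did not reach detection on 2 arrays: Rab2b, Rab3b, Rab3c, Rab9b, Rab15, Rab17, Rab25, Rab26, Rab27b, Rab30, Rab33a, Rab36, Rab37, Rab38, Rab40b and Rab44. Rab33a was detected on 1 array. Several are best known from other cells, Rab3b and Rab3c from neurons and endocrine cells, Rab17 and Rab25 from epithelia and Rab38 from pigment cells. Probes also disagreed for genes with no call, among them Rab43 (values given above). At 6 h against PBS a second Rab14 probe gave 0.88 where the brightest gave -0.0043, a second Rab10 probe gave 1.005 (0.45 for the brightest), and a second Rab28 probe gave 0.47 (-0.35 for the brightest).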
